A study of Mus musculus with 2 samples.

Results

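Bone morphogenetic proteins (BMPs) are secreted signals of the TGF-beta superfamily, and 10 genes of their pathway were followed in mouse embryonic stem (ES) cells labelled as Eed knockout and in control cells. The 10 were the ligand genes Bmp2, Bmp4 and Bmp7, the secreted antagonist genes Grem1, Nog and Chrd, and the target genes Id1, Id2, Id3 and Smad6. They were chosen with earlier results of these data known, by gene symbol from the platform annotation, out of 18193 genes named there. The 10 genes were represented by 14 probe sets. On this array a gene is read by 1 or more probe sets, sets of short oligonucleotides that together give 1 signal. Expression was measured on 2 Affymetrix MOE430 2.0 arrays, 1 with RNA of ES cells labelled as constitutive Eed knockout (Eed KO) and 1 with RNA of ES cells labelled as the control of the Eed KO. The labels give no strain, passage, culture medium or feeder layer, and do not say how Eed was disrupted or whether each line is 1 clone. With 1 array per group no difference below has a replicate check, no p-value was computed, and every fold is a difference between these 2 arrays.

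BMP dimers bind a complex of type I and type II serine/threonine kinase receptors, which phosphorylates Smad1, Smad5 and Smad9, and these enter the nucleus with Smad4. Gremlin, noggin and chordin bind BMPs outside the cell and keep them from their receptors. The Id genes are direct targets whose products lack a DNA-binding region and hold E proteins away from DNA, and Smad6 is an inhibitory Smad induced as feedback. In mouse ES cells, BMP4 acting through Id genes is known to support self-renewal together with LIF. Eed belongs to the core of Polycomb repressive complex 2 (PRC2), which places a silencing methyl mark on histone H3, typically at CpG-rich promoters of developmental genes.

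Grem1 was 8.04-fold higher in the Eed KO array, Id3 was 2.12-fold higher, and Chrd was at least 2.5-fold lower. The other 7 genes lay within 2-fold. Among them Id2, Smad6, Bmp7, Nog and Bmp2 had a ratio of Eed KO over control above 1, and Id1 and Bmp4 had a ratio below 1. Of all 13794 measured genes, 8126 had a ratio above 1 and 5666 had one below 1. The 2 of 10 genes that passed 2-fold upward stand beside 10.8% of all 13794 measured genes, and the 1 of 10 that passed it downward beside 3.27% of them. At 1.5-fold, 5 of the 10 were higher, where 23.3% of all measured genes were, and 2 were lower, where 10.2% were. At 3-fold Grem1 was the 1 gene higher, where 3.53% of all measured genes were, and 0 of 10 were lower, where 0.739% were. The median log2 ratio of the 10 genes was 0.55, against 0.12 for all measured genes. A gene counted as measured when its brightest probe set was above a floor of 61.3 on at least 1 array, which held for all 10. Signals under that floor were raised to it before a ratio was taken, so such a ratio gives only the smallest difference the signals allow, marked by "at least".

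The promoters of the 3 genes that passed 2-fold, and of Id2, which is described with Id3, are printed here because Polycomb silencing and the Smad proteins both act at gene starts. Each sequence runs 5′ to 3′ along the gene's own strand, from 250 bases before the RefSeq gene start to 50 after it, in build GRCm38.p6. Capitals mark GGCGCC, a GC-rich Smad element that reads the same on both strands, and CAGAC, the Smad binding element, with its reverse complement GTCTG. The Grem1 window is chr2:113758599-113758898 on the minus strand, that of Chrd is chr16:20732877-20733176 on the plus strand, that of Id2 is chr12:25096043-25096342 on the minus strand, and that of Id3 is chr4:136143572-136143871 on the plus strand.
Grem1: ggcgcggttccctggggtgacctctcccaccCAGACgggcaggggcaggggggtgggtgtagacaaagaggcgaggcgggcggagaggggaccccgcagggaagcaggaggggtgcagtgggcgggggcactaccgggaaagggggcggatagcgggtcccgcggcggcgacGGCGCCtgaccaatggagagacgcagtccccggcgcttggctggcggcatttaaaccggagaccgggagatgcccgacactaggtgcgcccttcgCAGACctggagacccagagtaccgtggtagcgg
Chrd: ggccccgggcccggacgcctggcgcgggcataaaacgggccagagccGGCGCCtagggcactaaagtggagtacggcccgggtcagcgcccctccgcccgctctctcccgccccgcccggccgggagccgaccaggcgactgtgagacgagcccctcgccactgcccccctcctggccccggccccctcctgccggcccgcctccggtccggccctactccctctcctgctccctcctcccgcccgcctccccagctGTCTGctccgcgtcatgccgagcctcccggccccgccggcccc
Id2: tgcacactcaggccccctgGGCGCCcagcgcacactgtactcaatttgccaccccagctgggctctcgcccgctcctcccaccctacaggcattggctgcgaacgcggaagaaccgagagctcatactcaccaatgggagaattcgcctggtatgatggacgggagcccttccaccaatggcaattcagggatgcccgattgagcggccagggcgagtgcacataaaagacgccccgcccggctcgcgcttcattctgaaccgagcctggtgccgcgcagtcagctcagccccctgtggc
Id3: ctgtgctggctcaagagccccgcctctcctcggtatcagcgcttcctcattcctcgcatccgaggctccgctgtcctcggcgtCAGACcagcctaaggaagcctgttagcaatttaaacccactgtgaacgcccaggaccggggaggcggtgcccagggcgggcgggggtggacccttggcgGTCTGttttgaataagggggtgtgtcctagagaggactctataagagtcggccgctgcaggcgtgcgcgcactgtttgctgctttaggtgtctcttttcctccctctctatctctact

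Of the 10 genes, 6 had an entry in the RefSeq promoter table (Grem1, Chrd, Bmp4, Id2, Id3 and Smad6), and all 6 windows were richer in CpG than the middle of the table. The ratio of observed to expected CpG was 0.95 for Smad6, 0.8 for Chrd, 0.79 for Grem1, 0.71 for Id2, 0.7 for Id3 and 0.42 for Bmp4, against a median of 0.38 over all 32841 promoters of the table. The Grem1 window held 28 CpG dinucleotides and the Chrd window 34, so the antagonist gene that was higher and the one that was lower had windows of similar CpG content. GGCGCC occurred in 3 of the 6 windows, where 11.9% of all promoters held it. It began 78 bases before the start of Grem1, 203 before that of Chrd and 231 before that of Id2. GGCGCC is made of G and C only, and all 6 windows were richer in these bases than the table's median of 52.7%. The share of G and C was 70.7% in Grem1, 78.3% in Chrd and 63.3% in Id2. Whether 3 of 6 exceeds the share in promoters of like composition was not tested. CAGAC or its reverse complement occurred in 3 of the 6, where 49.6% of all promoters held it. There were 2 matches in Grem1, 2 in Id3 and 1 in Chrd. The E box CANNTG, bound by basic helix-loop-helix factors, occurred in 4 of the 6 windows and in 72.3% of all promoters, and the Chrd match overlapped the Smad element there. A match is a stretch of letters and not a measured binding site.

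**Figure D1:**
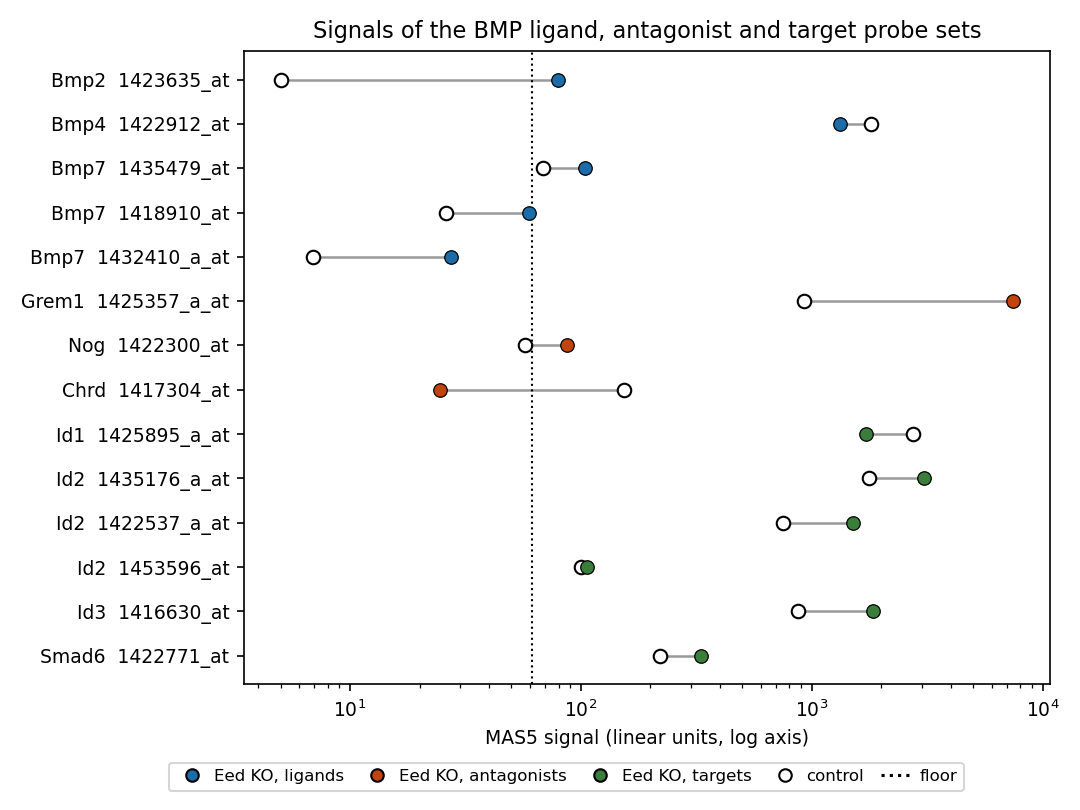
MAS5 signal (log axis) of all 14 probe sets of the 10 genes, with filled points for the Eed KO array, coloured by role, open points for the control array and a dotted line at the floor of 61.3. Grem1 shows the widest gap among the probe sets above the floor on both arrays, at 7464.7 in the Eed KO and 928.1 in the control, and the Chrd pair points the other way.

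Among the ligand genes described here, only Bmp4 was well above the floor on both arrays, and it stayed within 2-fold. Bmp4, which encodes the ligand known for its role in ES cell self-renewal, read 1324.7 in the Eed KO and 1795.1 in the control (probe set 1422912_at). That is a log2 ratio of -0.44, or 1.36-fold lower in the Eed KO. Where the dimmer probe set of a pair from 1 gene lay in this signal range, log2 ratios scattered with an SD of 0.22 per probe set. The estimate came from 613 genes. This SD covers technical spread between probe sets of 1 gene and spread between isoforms. It leaves out technical differences between the arrays that all probe sets share, and spread between cultures. The difference was larger than that SD, and Bmp4 remained below the control in all 11 alternative settings, at log2 ratios of -0.75 to -0.4.

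Bmp7, which encodes a ligand with roles in kidney and eye development, lay close to the floor on both arrays. Its brightest probe set, 1435479_at, read 104.2 in the Eed KO and 68.7 in the control, which is 1.52-fold higher. The SD at this signal was 0.49 on the log2 scale, against a log2 ratio of 0.6. Its other probe sets were under the floor on both arrays, at 59.6 in the Eed KO and 26.1 in the control for 1418910_at, and at 27.5 in the Eed KO and 6.9 in the control for 1432410_a_at. All 3 probe sets thus read higher in the Eed KO, but 2 of them below the level at which a ratio was taken.

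Bmp2, which encodes a close relative of Bmp4, read 79.2 in the Eed KO and 5.0 in the control (1423635_at). The control signal was far below the floor, and the bound was at least 1.29-fold higher. The size of the difference depends mostly on the floor: the log2 ratio was 0.37 with the floor used here, 1.42 with a floor of 29.7 and 3.99 with no floor. Bmp2 could not be measured with the floor at 168.2. Its direction was fixed by the floor, as only the Eed KO signal exceeded it.

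The secreted antagonist genes went in different directions. Grem1, which encodes gremlin, an antagonist of BMP2, BMP4 and BMP7 that is abundant in mesenchymal cells, read 7464.7 in the Eed KO and 928.1 in the control (1425357_a_at). Its log2 ratio of 3.01 stands beside a probe set SD of 0.18 at this signal. Grem1 ranked 19 by ratio, from the highest, among the 11815 genes that were above the floor on both arrays. Its signal was well above the floor on both, so that the ratio did not depend on the floor, and it was between 2.7 and 3.09 in the 11 alternative settings. Grem1 has 1 probe set on the array, so no further probe set checks it.

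Nog, which encodes noggin, read 86.7 in the Eed KO and 57.0 in the control (1422300_at), a bound of at least 1.41-fold higher. The control lay just under the floor and the Eed KO just above it, which fixed the direction. The log2 ratio of this bound was 0.5. The probe set SD of 0.49 for dim signals came only from probe sets above the floor on both arrays, so it does not cover Nog. Chrd, which encodes chordin, the antagonist first known from the dorsal organizer of the frog embryo, read 24.4 in the Eed KO and 153.3 in the control (1417304_at). It was at least 2.5-fold lower in the Eed KO, a log2 ratio of -1.32, and that SD does not cover Chrd either. Only the control signal of Chrd exceeded the floor, which fixed its direction, and no further probe set checks Chrd. It was not measured with the floor at 168.2 and stayed past 2-fold in the other 10 alternative settings. With this floor, the antagonist genes thus had both the highest and the lowest ratio of the 10.

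**Figure D2:**
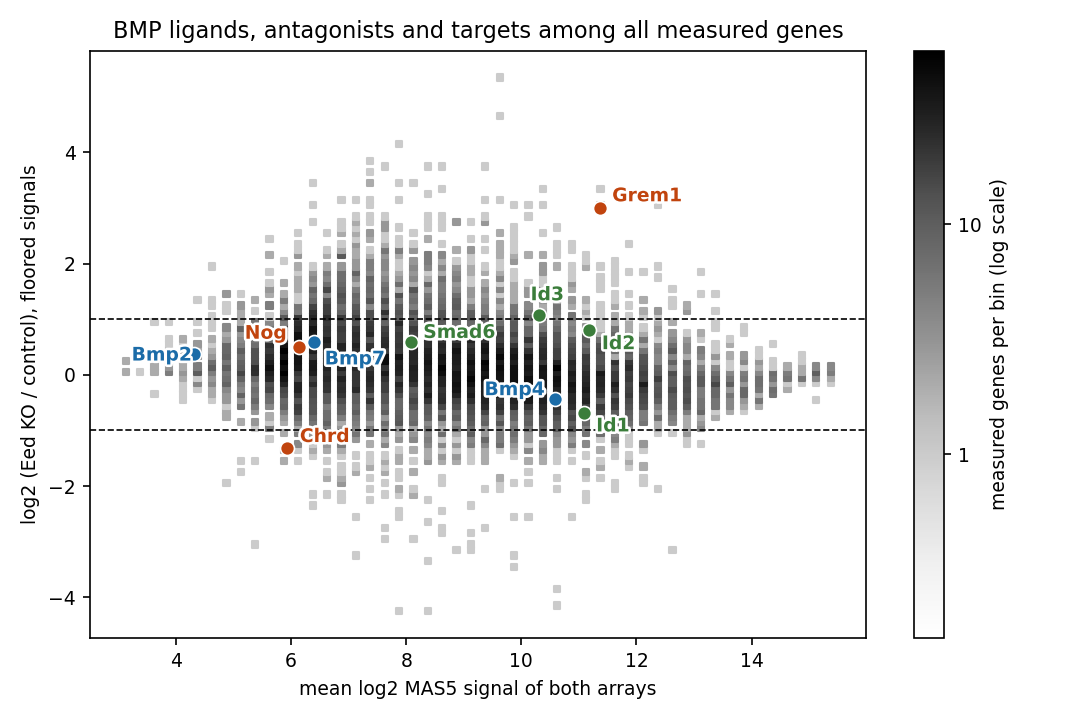
Log2 ratio of Eed KO over control (floored signals) against mean log2 signal, with grey squares shaded by the number of measured genes per bin, dashed lines at 2-fold and the 10 genes as coloured points. Grem1 lies at 3.01 in a range of signal where few genes pass 2-fold, while Bmp2, Nog, Bmp7 and Chrd lie in the dim range, with signals near or under the floor.

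The target genes did not move together. Id3 read 1842.7 in the Eed KO and 869.0 in the control (1416630_at), a log2 ratio of 1.08 against a probe set SD of 0.22. Id2 read 3073.3 in the Eed KO and 1759.1 in the control by its brightest probe set, 1435176_a_at, which is 1.75-fold higher. Both Id genes were thus higher in the Eed KO by several times the probe set SD, and Id3 alone passed 2-fold.

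The further Id2 probe sets gave 1510.1 in the Eed KO and 748.8 in the control for 1422537_a_at, which is 2.02-fold higher, and 106.1 in the Eed KO and 100.1 in the control for the dim 1453596_at, a log2 ratio of 0.08. The 2 bright Id2 probe sets agreed on the direction and lay on either side of 2-fold. Averaged over its probe sets, Id2 had a log2 ratio of 0.63. Id3 has 1 probe set. Its log2 ratio fell to 0.78 with equal array medians and was also under 2-fold when they were scaled on the poly-A spikes, so its call depends on the scaling.

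Id1 went the other way. It read 1715.2 in the Eed KO and 2748.8 in the control (1425895_a_at), a log2 ratio of -0.68 or 1.6-fold lower, against a probe set SD of 0.18. In the 11 alternatives it was between -0.99 and -0.61. As with Id3, no further probe set checks Id1. A common scale factor between the arrays cannot change the distance between genes: the log2 ratio of Id3 exceeded that of Id1 by 1.76, and that of Id2 exceeded it by 1.49. Of the scalings tried, quantile normalization and taking out the intensity trend could move these distances, and each gave 1.71 for Id3 over Id1 and 1.49 for Id2 over Id1. Averaged over probe sets, Id2 exceeded Id1 by 1.31. Id3 and Id2 differed by 0.28.

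Smad6, the inhibitory Smad gene, read 331.8 in the Eed KO and 220.3 in the control (1422771_at), which is 1.51-fold higher. Its log2 ratio of 0.59 stands beside an SD of 0.33, and it ranged from 0.28 to 0.59 in the alternatives. Of the 4 target genes, 3 were higher and 1 lower in the Eed KO, and 1 passed 2-fold.

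**Figure D3:**
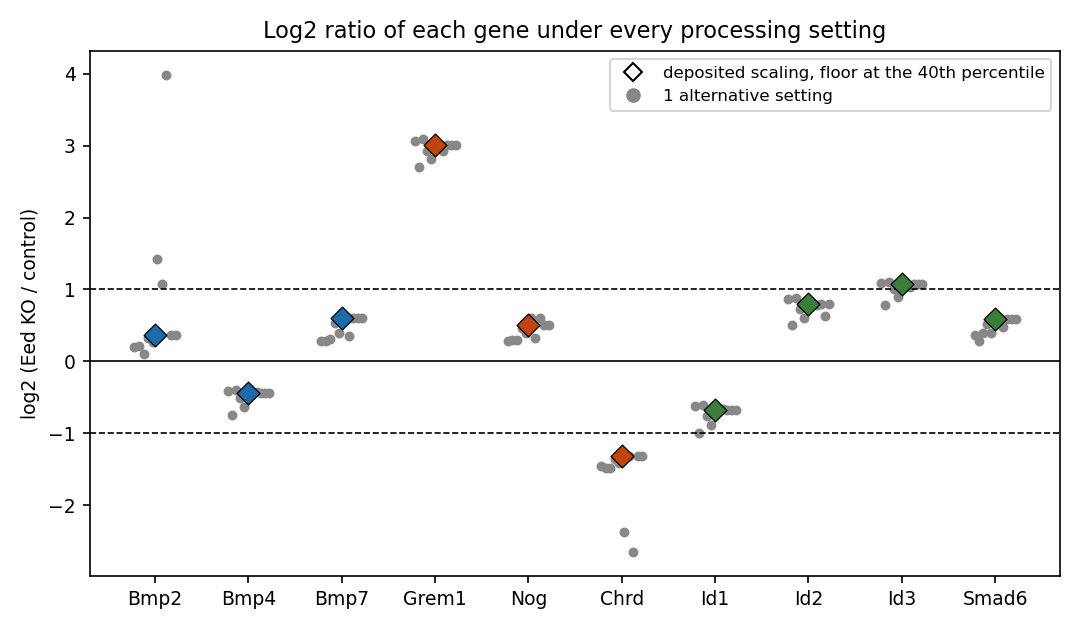
Log2 ratio of Eed KO over control for each of the 10 genes, with diamonds for the deposited scaling and the floor of 61.3, grey points for each alternative setting in which the gene was measured, and dashed lines at 2-fold. No gene changes sign. Bmp2 runs from 0.1 to 3.99 and Chrd from -2.65 to -1.32, and Id3 straddles the 2-fold line.

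The rest of the pathway was read from lists of 62 further genes, of which 57 were named on the array and 43 were measured. Of the 43, 9 passed 2-fold upward in the Eed KO and 2 downward, where 10.8% and 3.27% of all measured genes did. Their median log2 ratio was 0.47, against 0.12 for all measured genes. The counts of each pathway and marker list below stand beside those same shares, as a description. Among 5 further ligand genes measured, Bmp8b, known for its role in germ cell development, was 2.72-fold higher at 378.2 in the Eed KO and 139.3 in the control. Its other probe set gave 283.1 in the Eed KO and 105.9 in the control, 2.67-fold higher. The other 4 stayed within 2-fold, with signals of at most 179.1 on either array.

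Bmpr1a and Bmpr2, which encode receptors that carry BMP signals, were above the floor on both arrays. Bmpr1a, a type I receptor gene, read 1697.9 in the Eed KO and 1464.4 in the control (log2 ratio 0.21, turning to -0.09 with equal array medians). Bmpr2, the type II receptor gene, read 1174.0 in the Eed KO and 635.0 in the control (log2 ratio 0.89). Its other probe sets had log2 ratios of 0.43 and -0.05, and averaging over its probe sets gave 0.42. Among the 10 measured receptor and co-receptor genes, 2 passed 2-fold upward and 1 downward, with a median of 0.4, and 2 were under the floor in the control. Rgma was under it on both arrays.

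The higher receptor genes were Acvr1, another type I receptor gene, at 463.9 in the Eed KO and 153.4 in the control (3.02-fold), and Bmpr1b at 151.8 in the Eed KO and 55.1 in the control (at least 2.48-fold). The other Acvr1 probe sets had log2 ratios of 0.6 and 0.05, and averaging all 3 gave 0.75. Averaged in the same way, Bmpr1b came to 0.79. The lower one was Acvr2b, a type II receptor gene shared with activin, at 358.1 in the Eed KO and 756.4 in the control (2.11-fold lower, and -0.78 when averaged over probe sets). No receptor call held in every setting.

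Of 8 other antagonist and modulator genes measured, 5 had a ratio above 1 and 3 below, where 8126 of all 13794 measured genes were above 1. Of the 8, 3 passed 2-fold upward and 0 downward, and the median was 0.6. Bmper, a crossveinless-type BMP-binding protein gene, read 282.9 in the Eed KO and 68.0 in the control (4.16-fold). Nbl1, a member of the same DAN family as gremlin, read 223.5 in the Eed KO and 45.2 in the control (at least 3.65-fold). Fst, which encodes follistatin, an activin and BMP antagonist, read 664.6 in the Eed KO and 187.9 in the control (3.54-fold), and its other probe set was 3.42-fold higher. With the floor at 168.2, Bmper and Nbl1 fell to log2 ratios of 0.75 and 0.41, while Fst stayed at or above 1.52 in all 11 alternatives. Among the tolloid proteases, which cleave chordin, Bmp1 was 4.07-fold higher (612.4 in the Eed KO and 150.3 in the control) and Tll1 at least 2.17-fold (133.2 in the Eed KO and 47.6 in the control), though Tll1 was under 2-fold in 4 alternatives.

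Of the Smad transducers and their regulators, 0 of 9 measured genes passed 2-fold upward and 1 downward, with a median of 0.27. Smad1 read 938.0 in the Eed KO and 669.8 in the control (log2 ratio 0.49), Smad5 read 445.7 in the Eed KO and 393.2 in the control (0.18) and Smad4 read 3238.7 in the Eed KO and 2692.5 in the control (0.27). The last 2 turned to -0.13 and -0.04 with equal array medians. The lower gene was Skil, which encodes the Smad corepressor SnoN, at 2041.8 in the Eed KO and 5228.7 in the control (2.56-fold lower). Its other probe set gave 159.8 in the Eed KO and 402.1 in the control, 2.52-fold lower, and the gene stayed past 2-fold in all 11 alternatives.

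Of 6 further BMP-responsive genes measured, all had a ratio above 1, where 8126 of all 13794 measured genes did. Their median was 0.46, and 1 passed 2-fold. That was the homeobox gene Msx2, at 369.9 in the Eed KO and 118.5 in the control (3.12-fold, but 0.84 on the log2 scale when averaged over probe sets). Hey1, at 0.12, turned below 0 in 4 alternatives. Id4, a further Id gene, read 615.5 in the Eed KO and 460.0 in the control (log2 ratio 0.42), and Smad7, the other inhibitory Smad gene, 2168.3 in the Eed KO and 1527.3 in the control (0.51). None of the 3 E protein genes, whose products the Id proteins bind, passed 2-fold by its brightest probe set. Tcf3 read 664.8 in the Eed KO and 1270.1 in the control (log2 ratio -0.93), and passed 2-fold in 4 alternatives, down to -1.24. Its other probe sets were 2.21-fold and 2.53-fold lower in the Eed KO. Tcf12 had a log2 ratio of 0.83 and Tcf4 one of 0.57.

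**Figure D4:**
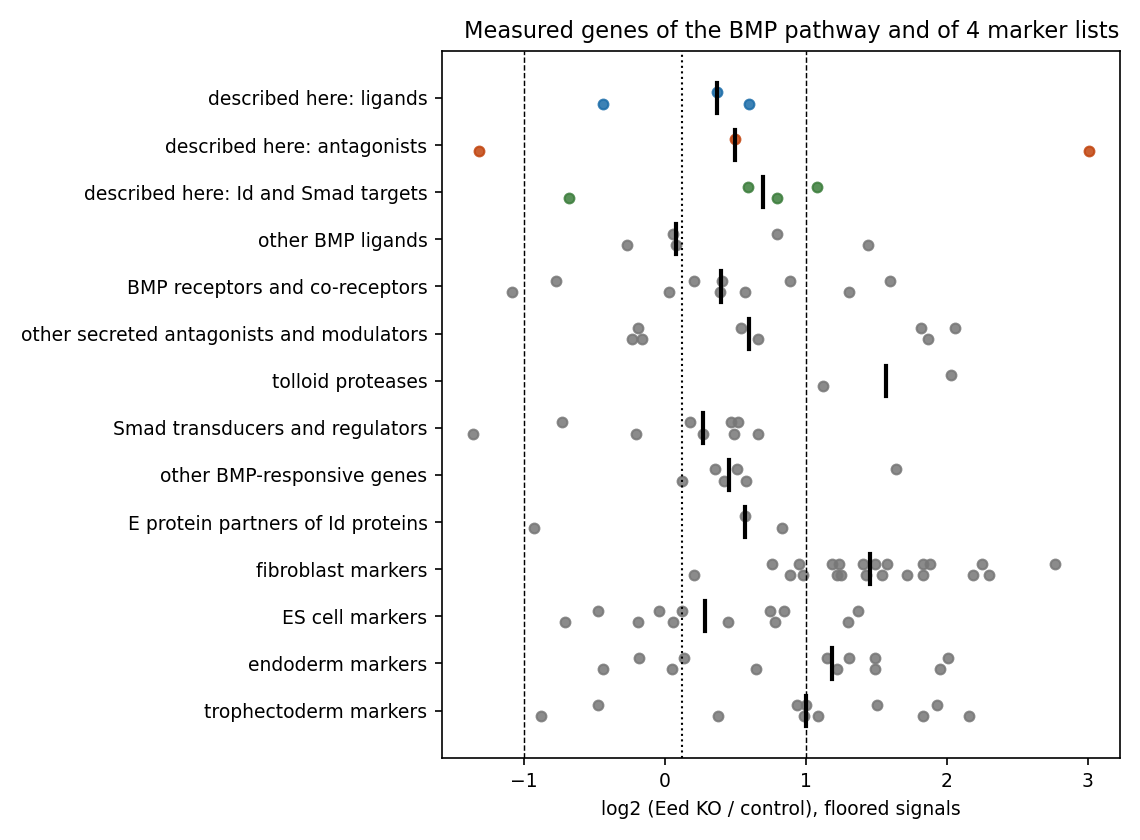
Log2 ratio of Eed KO over control for each measured gene of the BMP pathway lists and of 4 marker lists, with black bars at list medians, dashed lines at 2-fold and a dotted line at the median of all measured genes (0.12). The fibroblast markers, with a median of 1.46, lie to the right of all pathway lists but the 2 measured tolloid genes.

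Most measured markers of other cell types were higher in the same array as Grem1. Of 22 measured fibroblast markers 17 passed 2-fold upward in the Eed KO and 0 downward, where 10.8% and 3.27% of all measured genes did, and the summed signal of the 24 named ones was 57562.0 in the Eed KO and 27109.5 in the control. None was listed at 0, while Lum and Fap were under the floor on both arrays. The most different were Prrx1 (6.84-fold), Pdgfrb (4.92-fold) and Dcn (4.76-fold). Pdgfrb read 312.7 in the Eed KO and 63.6 in the control, close to the floor. Its other probe set gave at least 1.82-fold, and with the floor at 168.2 its log2 ratio was 0.89. The log2 ratio of Grem1 exceeded those of all 22. The fibroblast count was between 13 and 18 in the 11 alternatives. Among endoderm markers 7 of 12 passed 2-fold upward, between 4 and 8 in the alternatives, and 0 downward (median 1.19). Their ratio was above 1 for 10 and below 1 for 2, the lowest at a log2 ratio of -0.44. Summed signals were 11287.9 in the Eed KO and 7194.2 in the control, and Ttr was under the floor on both arrays. Among trophectoderm markers 6 of 11 passed 2-fold upward, likewise between 4 and 8, and 0 downward (median 1.0). Here 9 had a ratio above 1 and 2 below, the lowest being Ascl2 at a log2 ratio of -0.88. With quantile normalization, equal array medians, the intensity trend taken out or scaling on the poly-A spikes, 1 passed 2-fold downward. Summed signals were 17917.8 in the Eed KO and 9287.4 in the control, and Cdx2 was under the floor on both. The part of these markers in the BMP pathway values was not tested, and in such a bulk sample a different share of cells cannot be told apart from different RNA per cell.

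The ES cell markers were bright on both arrays: Pou5f1 had a log2 ratio of -0.19, Sox2 one of -0.47 and Nanog one of 0.85. Of 12 such markers 2 passed 2-fold upward and 0 downward. With equal array medians, 1 passed it in each direction. Averaged over probe sets, 2 passed it upward and 1 downward, the lower one being Utf1 at a log2 ratio of -1.14. Eed itself read 11455.8 in the Eed KO and 10101.3 in the control, a signal that checks nothing, since where the gene was disrupted is not given in the labels. Both arrays had the same trimmed mean of 500.0, and medians of 108.1 in the Eed KO and 87.4 in the control. The ratio of 3′ to 5′ signal of Gapdh, which reports on RNA integrity, came to 0.789 in the Eed KO and 0.791 in the control.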

How the data were processed

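Gene expression was measured on 1 array of Eed KO and 1 of control mouse ES cells, grouped by sample title. Per the submitters' processing notes, MAS5 (no version given) made the deposited intensity values, 1 per probe set and array on a linear scale, without detection calls. They were scaled before deposit: the mean without the lowest and highest 2% of 45101 probe sets was 500.0 on both arrays.

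Probe sets with 1 symbol in the platform annotation (34945) were kept, and 932 with several and 9160 with none were not named. Where a gene had several probe sets, the one with the brightest mean log2 signal stood for it. The floor of 61.3 was the 40th percentile of non-control signals. Log2 ratios are Eed KO minus control and calls were made at 2-fold. The number of arrays limits the precision. The text names all 10 genes, the called genes of each other list, key receptors and Smads, and a few markers. The genes and lists were chosen with earlier results of these data known. Probe set spread came from the 2 brightest probe sets above the floor on both arrays, for 5418 genes. Pairs were grouped by the mean signal of the dimmer probe set. Promoters came from RefSeq (GRCm38.p6). A planned comparison of protein sequences was not made. Alternatives were 5 other scalings, 4 other treatments of dim signals, 2 choices of probe set and calls at 1.5-fold and 3-fold. Python 3.11.15, pandas 2.3.3, SciPy 1.17.1 and statsmodels 0.14.6 were used. The steps were tested on simulated data with changes placed only in genes well above the floor, so changes near it were not covered.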

Additional observations from a re-analysis of the deposited data

How the results depend on the processing

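The count of the 10 genes at least 2-fold higher was 1 with equal array medians or with scaling on the poly-A spikes, 5 with calls at 1.5-fold and 1 with calls at 3-fold, against 2. The count at least 2-fold lower was 0 with the floor at the 60th percentile, 2 with calls at 1.5-fold and 0 with calls at 3-fold, against 1. Equal array medians put the typical measured gene at a log2 ratio of -0.16, against 0.12, and higher genes were then 45.9% of all calls, against 76.7%. They were 64.6% with quantile normalization, 66.1% with the intensity trend taken out and 57.6% with scaling on the poly-A spikes. The median of the 10 genes was between 0.28 and 0.7 in 11 alternatives. Bmp2, Nog, Bmp7 and Chrd, whose signals lay near or under the floor, were not measured with it at the 60th percentile, where that median rests on the other 6 genes. In the other pathway lists, with at most 3 calls each way, counts moved by up to 2 genes in some settings. With calls at 2-fold, the count of higher endoderm markers was 4 (of 10 measured) with that higher floor and 5 with equal array medians, against 7. That of trophectoderm markers was 4 with equal array medians or the poly-A spikes, against 6, and that of fibroblast markers was 13 with equal array medians and 14 with the higher floor, against 17. No paired analysis was possible because each group has 1 array, which also leaves no array to leave out.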

Other observations

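The genes next to each of the 10 along the chromosome were read as a description chosen after the values were seen, with order taken from RefSeq protein-coding genes of GRCm38.p6. Of 28 measured neighbours within 2 places on either side, 2 passed 2-fold upward in the Eed KO and 0 downward, where 10.8% and 3.27% of all measured genes did. These 2 were Ddhd1 beside Bmp4 (2.27-fold) and Pctp near Nog (2.69-fold). Around Grem1 no neighbour shared its 8.04-fold ratio. Fmn1, which encodes formin 1, read 69.1 in the Eed KO and 49.7 in the control, at the floor. Scg5 and Tmco5b were under the floor on both arrays, and Arhgap11a read 2071.1 in the Eed KO and 2040.1 in the control (1.02-fold). Next to Id3, the ribosomal protein gene Rpl11 read 26424.5 in the Eed KO and 26180.6 in the control (1.01-fold). Next to Id2, Kidins220 read 1510.4 in the Eed KO and 762.6 in the control (1.98-fold). Whether any of these neighbours shares regulation with the 10 genes was not tested.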
